A study of Mus musculus with 18 samples.

Results

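The genes described here are 36 neural crest, Schwann lineage, myelin and mesenchymal transition genes, picked by gene name from the 35275 genes of the read-count table. They fall into 8 neural crest factors, 14 Schwann factors and lineage markers, 7 myelin genes and 7 mesenchymal transition factors. The counts come from cell lines of murine malignant peripheral nerve sheath tumor (MPNST), a sarcoma of the peripheral nerve. Each tumor was raised in a wild-type 129 Sv/Jae mouse by injecting an adenovirus, which carried Cas9 and guides, into the sciatic nerve, either against Nf1 and p53 (Nf1/p53 dKO, for double knockout) or against Nf1 and Cdkn2a (Nf1/Cdkn2a dKO). There were 3 lines per genotype, each from a separate tumor, and 3 untreated cultures per line, which gave 18 libraries. All lines thus share the targeting of Nf1, the virus and the strain, and grew in DMEM with serum. The age of the mice is not given in the sources used here, and no normal nerve or benign tumor is among the samples. Cas9 was driven by the CMV promoter, which is not restricted to Schwann cells, so the promoter does not fix the cell in which a tumor began.

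Neural crest cells are migratory embryonic cells that leave the neural tube and give rise, among other cells, to the Schwann cells of peripheral nerves. SOX10 holds the lineage from the crest to the mature glial cell, and a Schwann precursor passes through an immature stage that expresses SOX2 and the low-affinity neurotrophin receptor NGFR before EGR2 drives the genes of compact myelin. The TWIST, Snail and ZEB factors act in the epithelial-to-mesenchymal transition of migrating crest cells, and are also expressed in mesenchymal cells and many sarcomas. MPNST is known to lose much of the Schwann program while keeping some crest factors, among them SOX9 and TWIST1.

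Libraries held 19560535 to 28312207 counts, and the cultures of a line were summed to samples of 65206479 to 73065228 counts, because cultures of one line share a tumor. Levels are given as CPM, counts scaled to library size after TMM normalization, and 3 counts in a single library correspond to 0.106 to 0.153 CPM. Cultures of a line were not repeats of 1 library (chi-square at least 3.50 per degree of freedom for every pair). Of the targeted genes, Trp53 was higher in the Nf1/Cdkn2a dKO lines (185 to 247 CPM) than in the Nf1/p53 dKO lines (58.6 to 94.1 CPM; log2 fold change 1.62, edgeR adjusted p = 0.0361). Cdkn2a (42.9 to 363 CPM in Nf1/p53 dKO and 169 to 391 CPM in Nf1/Cdkn2a dKO) and Nf1 (27.7 to 70.0 and 12.7 to 38.2 CPM) overlapped, and total counts do not read the edited sites.

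The defining markers of Schwann cells were at or near 0 in most lines. SOX10 is the lineage's master factor, and the Sox10 gene had 18 counts over all 18 libraries and at most 5 in any of them. Erbb3, the neuregulin receptor that keeps Schwann cells alive, lay between 0.173 and 1.73 CPM. The cadherin gene Cdh19, which marks Schwann precursors, had 3.90 CPM in Nf1/p53 dKO line 2, 0.425 and 0.138 CPM in lines 1 and 3, and no count in any Nf1/Cdkn2a dKO library. The 5 markers S100b, Sox10, Erbb3, Cdh19 and Ngfr summed to 70.7 CPM in Nf1/p53 dKO line 2 and to 0.401 to 2.52 CPM in the other 5 lines. Nf1/p53 dKO line 2 therefore stands apart from the rest in this list, and most of its sum is Ngfr.

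The labels call the cells mesenchymal. Vim, which encodes the mesenchymal intermediate filament protein vimentin and was picked for this check after its values were seen, lay between 4725 and 10202 CPM. Of the epithelial adhesion genes, also picked afterwards, Cdh1 was at most 1.26 CPM and Epcam at most 0.764 CPM in any line. Keratin genes of simple epithelia were not low in all lines. Krt8 stood at 540 CPM in Nf1/p53 dKO line 2 and 601 CPM in Nf1/Cdkn2a dKO line 1 and at 0.484 to 21.6 CPM in the other 4 lines, and Krt18 at 199 CPM in Nf1/p53 dKO line 2, 172 CPM in Nf1/Cdkn2a dKO line 2 and 0.747 to 34.4 CPM in the other 4. Krt19 was at most 7.81 CPM. The 15 fibroblast markers summed to 3821 to 12933 CPM in Nf1/p53 dKO and 3554 to 7261 CPM in Nf1/Cdkn2a dKO. The 11 markers of the skeletal muscle lineage summed to 89.3 to 422 CPM in Nf1/p53 dKO and 1.51 to 7.02 CPM in Nf1/Cdkn2a dKO, so their sums did not overlap between the genotypes.

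**Figure D1:**
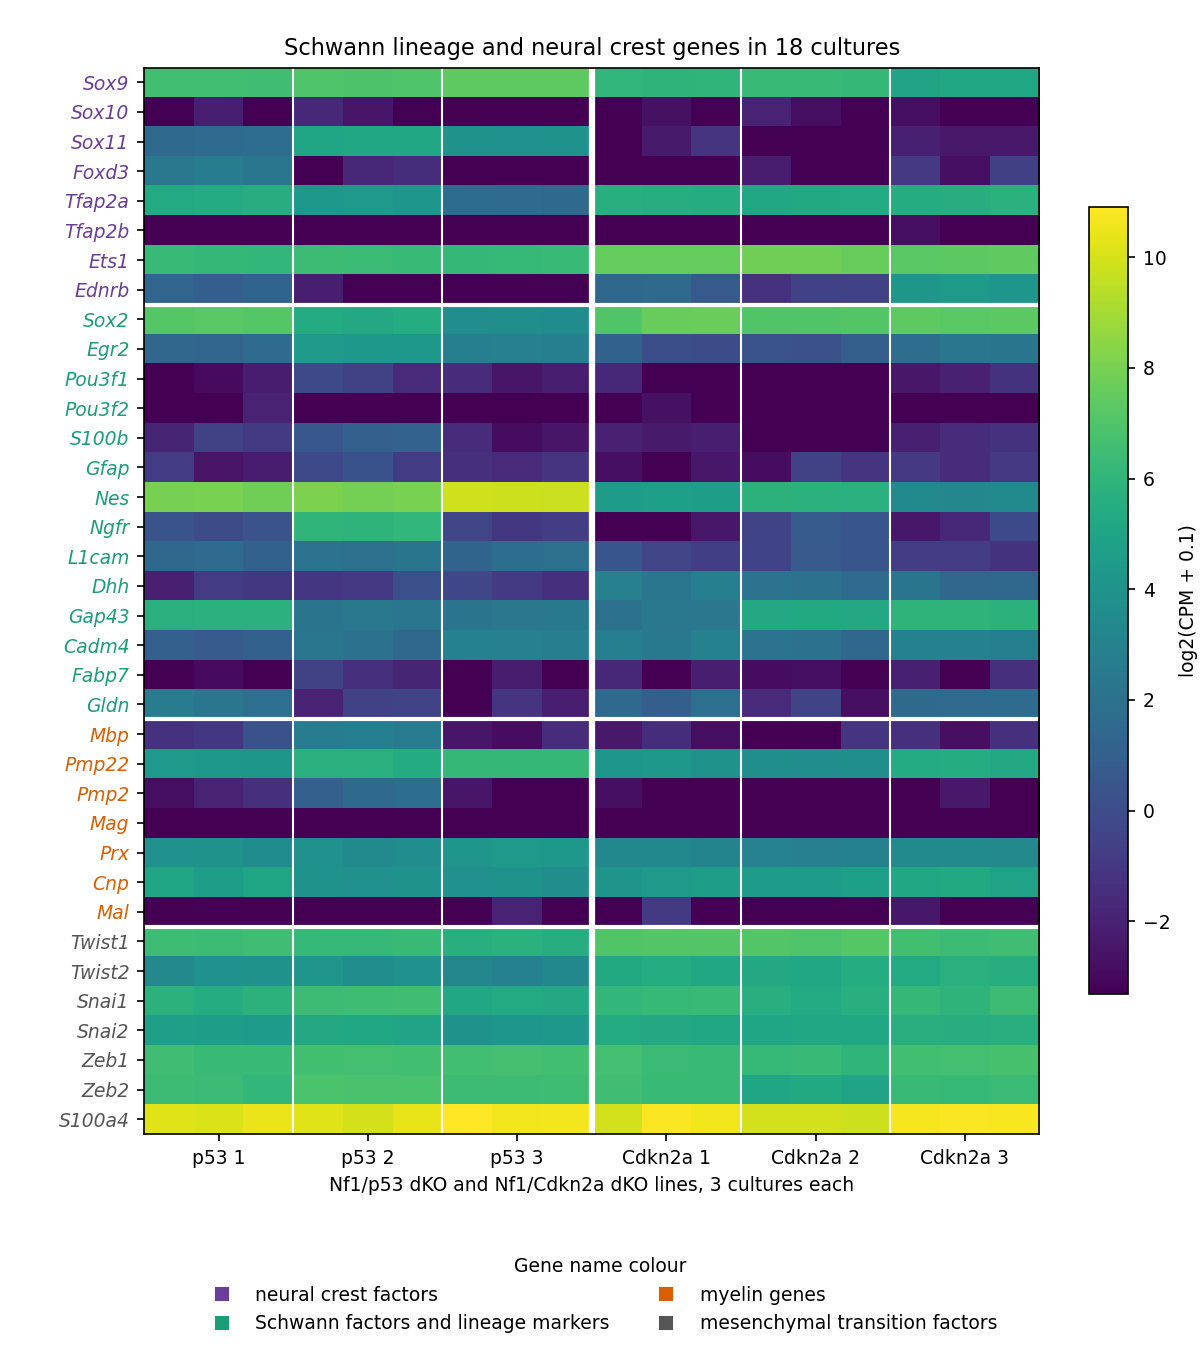
Levels of the 36 genes in 18 cultures, as log2(CPM + 0.1), with genes in rows (name colour gives the gene group), cultures in columns and thick white lines between groups and genotypes. The mesenchymal transition factors are bright in every culture, and Ngfr, Mbp and Pmp2 stand out in the 3 cultures of Nf1/p53 dKO line 2.

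Whether the genotypes differ in these genes was tested with edgeR's quasi-likelihood test on the 6 lines, with Benjamini-Hochberg adjustment over all 15207 genes tested and a positive log2 fold change for higher expression in Nf1/Cdkn2a dKO. Of the 36 genes, 29 had enough counts. The other 7 (Sox10, Tfap2b, Pou3f2, Fabp7, Pmp2, Mag and Mal) were too low to test. Of the 29, 3 passed an adjusted p of 0.05 (background over all genes, 1.8%), all of them higher in Nf1/Cdkn2a dKO (background 0.638%) and none lower (background 1.16%). They were the crest factor Ets1, the Schwann ligand Dhh and the mesenchymal factor Twist2, 1 each from 3 of the 4 groups. At an unadjusted p under 0.05 there were 13 of 29 (background 22.4%). The 3 lines of one genotype lay wholly above those of the other in 10 of 29 (background 31.4%), 5 higher in Nf1/Cdkn2a dKO (background 14.8%) and 5 higher in Nf1/p53 dKO (background 16.6%). The median log2 fold change was −0.09 over the 29 genes and −0.02 over all genes tested, with 14 above 0 and 15 below. The cultures of a line are not independent tumors, and counts of called genes rose when they were entered as separate samples, to 16 of 24 tested with edgeR (66.7%; background 46.5%), 20 of 33 with DESeq2 (60.6%; background 39.3%), 14 of 24 with edgeR and the culture number as a block (58.3%; background 43.3%) and 11 of 24 with limma-voom and a random line effect (45.8%; background 16.6%). On the 6 lines, DESeq2 called 10 of 28 (background 12%), edgeR with no filter 5 of 35 (1.72%) and edgeR with the line number as a block 0 of 29 (0%). With culture 1, 2 or 3 of each line left out, 3 of 27 (background 1.9%), 4 of 26 (2.29%) and 4 of 25 (1.88%) were called.

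Each line carried weight in this test. With Nf1/p53 dKO line 1 left out, 1 gene was called (Sox11, background 1.11%). Without line 2 it was 0 (0.173%), and without line 3 it was 1 (Twist2, 0.681%). At an unadjusted p under 0.05 (edgeR), these fits had 18 of 29, 10 of 29 and 11 of 30 genes. Over all genes they had 3337 of 15549, 3169 of 15605 and 3391 of 15711. With Nf1/Cdkn2a dKO line 1, 2 or 3 left out, 0 were called (background 0%, 0.0127% and 0.145%). Unadjusted (edgeR), these fits had 7, 7 and 12 of 30 genes. Over all genes they had 2668 of 15872, 2684 of 15791 and 2802 of 15842.

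**Figure D2:**
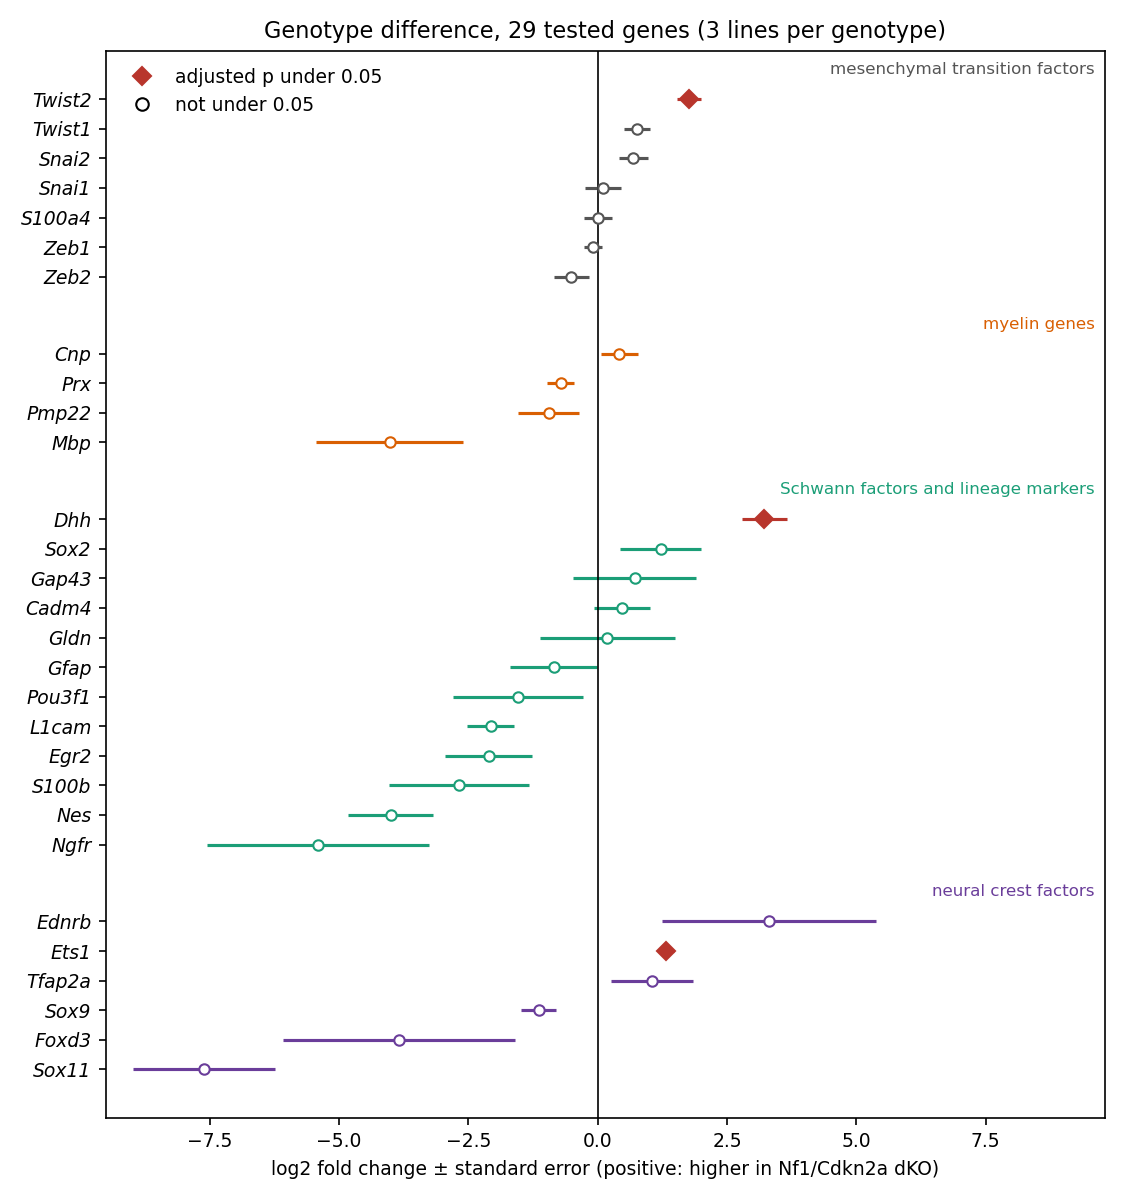
Log2 fold change with its standard error for the 29 tested genes, by gene group, with 3 lines per genotype. Filled diamonds mark Twist2, Dhh and Ets1, the genes with an adjusted p under 0.05, all to the right of 0. The widest error bars belong to genes in which lines of one genotype differ, such as Foxd3, Ngfr and Ednrb.

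Among the 8 neural crest factors, Ets1 was the gene that rose in the Nf1/Cdkn2a dKO, by 2.49-fold, and Sox9 and Sox11 lay higher in all Nf1/p53 dKO lines without passing the test. Of the 6 tested, 1 was called (background 1.8%), and the median log2 fold change was −0.05. ETS1 is an ETS family factor that acts in the delamination of the cranial crest. Ets1 (chr9:32636221-32757820 of GRCm38) stood at 71.6, 82.5 and 73.8 CPM in Nf1/p53 dKO lines 1 to 3 and at 188, 217 and 162 CPM in Nf1/Cdkn2a dKO lines 1 to 3. The lowest Nf1/Cdkn2a dKO culture, at 152 CPM, was above the highest Nf1/p53 dKO culture, at 87.3 CPM. Its log2 fold change was 1.31 (standard error 0.16, edgeR adjusted p = 0.0272). With 2 lines left in a genotype the call was lost, with adjusted p = 0.0541, 0.0659 and 0.0564 without Nf1/p53 dKO lines 1, 2 and 3 and 0.112, 0.102 and 0.0669 without Nf1/Cdkn2a dKO lines 1, 2 and 3, at a log2 fold change of 1.21 to 1.42.

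Sox11, which encodes a SOXC factor of neural and crest progenitors (chr12:27334264-27342574), had 239, 2467 and 1099 counts in the 3 Nf1/p53 dKO lines, or 3.08, 34.9 and 15.2 CPM. In Nf1/Cdkn2a dKO it had 10 counts in line 1, none in line 2 and 7 in line 3, and at most 8 in any culture. Line 2 of the Nf1/p53 dKO was thus highest, and the lowest Nf1/p53 dKO line lay above all Nf1/Cdkn2a dKO lines. The fitted log2 fold change of −7.61 (standard error 1.37) had an edgeR adjusted p of 0.0517, and rests in Nf1/Cdkn2a dKO on those few counts. It passed without Nf1/p53 dKO line 1 (0.0486), without culture 2 or 3 of each line (0.0469 and 0.0447), with upper-quartile scaling (0.0494), raw library totals (0.0443) and no filter (0.0311), and also with DESeq2 on the 6 lines and in all 4 fits to the 18 cultures. It did not pass in the other 8 of 19 alternatives, where the highest adjusted p was 0.162 with the line number as a block, and 0.150 without Nf1/Cdkn2a dKO line 1 among those that left out a line.

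Sox9, a SOXE factor that specifies the crest and also cartilage, was the crest factor with the highest mean level per length over the 6 lines. In Nf1/Cdkn2a dKO alone, Ets1 averaged more (22.3 against 14.1 CPM per kilobase of exon). Sox9 had 94.1, 124 and 166 CPM in Nf1/p53 dKO and 63.8, 76.4 and 34.3 CPM in Nf1/Cdkn2a dKO. The lines did not overlap, and the log2 fold change was −1.14 (standard error 0.34, edgeR adjusted p = 0.123). Foxd3, a repressor that holds crest cells undifferentiated, was read mainly in a single line. It had 5.45 CPM in Nf1/p53 dKO line 1, 0.155 CPM in line 2 and no count in line 3. In Nf1/Cdkn2a dKO it had no count in line 1, 0.0433 CPM in line 2 and 0.344 CPM in line 3. Its log2 fold change was −3.84 (standard error 2.25, edgeR adjusted p = 0.36) and became 0.72 without Nf1/p53 dKO line 1. Ednrb, the endothelin receptor of crest and melanocyte precursors, had 2.16, 0.0424 and 0 CPM in Nf1/p53 dKO and 2.29, 0.476 and 19.3 CPM in Nf1/Cdkn2a dKO, so Nf1/Cdkn2a dKO line 3 stood alone. The log2 fold change was 3.31 (standard error 2.07, edgeR adjusted p = 0.39).

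Tfap2a, which encodes the AP-2 alpha factor of early crest, was high in Nf1/p53 dKO line 1 (43.6 CPM) and in all Nf1/Cdkn2a dKO lines (39.3 to 48.7 CPM), and lower in Nf1/p53 dKO lines 2 and 3 (18.9 and 3.06 CPM). Its paralog Tfap2b had 1 count in 1 of the 18 libraries. Of 15 further crest genes with enough counts, 0 passed the test (edgeR, background 1.8%), with 5 at an unadjusted p under 0.05 (background 22.4%). The lowest log2 fold change among them was that of Sox8, the third SOXE gene, which was at most 0.636 CPM in any line (−1.93, edgeR adjusted p = 0.333).

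Of the 14 Schwann factors and lineage markers, Dhh was the gene that rose in the Nf1/Cdkn2a dKO, by 9.34-fold, while Nes and L1cam were higher in every Nf1/p53 dKO line without passing the test. Of the 12 tested, 1 was called (background 1.8%), and 7 had a log2 fold change below 0 (7875 of 15207 over all genes). Their median was −1.20, with −0.02 over all genes. The median was −0.26 without Nf1/p53 dKO line 2 and −1.61 to −0.87 with any other line left out, so much of its size rests on that line. It was 0.31 over the 8 genes that reached 10 counts in each line and −0.60 to −0.34 over the 10 or 11 genes tested with 1 culture of each line left out.

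Desert hedgehog, the protein of Dhh, is secreted by Schwann cells and signals to the perineurium. Dhh (chr15:98891152-98898540) had 27, 42 and 35 counts in the Nf1/p53 dKO lines (0.348, 0.594 and 0.484 CPM) and 394, 264 and 207 counts in the Nf1/Cdkn2a dKO lines (6.32, 3.81 and 3.24 CPM). The lowest Nf1/Cdkn2a dKO culture had 2.53 CPM and the highest Nf1/p53 dKO culture 1.02 CPM. The log2 fold change was 3.22 (standard error 0.43, edgeR adjusted p = 0.0359). The call was lost without any 1 of the 6 lines, with adjusted p = 0.0637, 0.0701 and 0.0706 without Nf1/p53 dKO lines 1, 2 and 3 and 0.123, 0.11 and 0.0828 without Nf1/Cdkn2a dKO lines 1, 2 and 3, at a log2 fold change of 2.89 to 3.43. Dhh shares 546 exon bases with Rhebl1 on the same strand, so its counts are uncertain. Rhebl1 itself had 4.59 to 12.3 CPM in Nf1/p53 dKO and 3.67 to 6.38 CPM in Nf1/Cdkn2a dKO (log2 fold change −0.71, edgeR adjusted p = 0.39).

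Because Dhh and Twist2 both rose, the 250 bases before the RefSeq start of each are shown, on the gene's own strand (GRCm38.p6). Letters of member factors' motifs were searched on both strands, and matches are in capitals: CANNTG, the E-box of TWIST and other basic helix-loop-helix factors, with CAGGTG, the form bound by Snail and ZEB factors, as a special case of it; ACAAAG and ACAATG for SOX; CCGGAA for ETS; and GCCNNNGGC for AP-2. The Dhh window is chr15:98898541-98898790 on the minus strand, and the Twist2 window chr1:91801211-91801460 on the plus strand.
Dhh: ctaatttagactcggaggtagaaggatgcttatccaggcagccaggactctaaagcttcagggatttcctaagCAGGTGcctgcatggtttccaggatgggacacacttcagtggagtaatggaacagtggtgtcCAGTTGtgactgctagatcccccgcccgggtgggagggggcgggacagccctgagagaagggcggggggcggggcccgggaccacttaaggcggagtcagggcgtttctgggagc
Twist2: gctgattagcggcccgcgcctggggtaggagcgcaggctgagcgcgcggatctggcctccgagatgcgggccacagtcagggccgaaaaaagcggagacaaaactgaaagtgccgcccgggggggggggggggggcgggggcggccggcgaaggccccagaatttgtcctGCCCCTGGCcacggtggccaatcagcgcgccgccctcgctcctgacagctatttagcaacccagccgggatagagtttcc
The Dhh window held CANNTG at 2 places, 1 of them CAGGTG, and the Twist2 window held GCCNNNGGC once. In windows of the same length before 32851 RefSeq starts, 66.2% held CANNTG, 17.2% CAGGTG, 16.5% ACAAAG, 10.7% ACAATG, 12% CCGGAA and 13.7% GCCNNNGGC. The window of Twist2 was 68.8% GC and that of Dhh 59.6%, with a median of 52.4% over all of them. The Twist2 gene overlaps the antisense gene Gm29100, and whether annotated exons cover either window was not tested. These matches describe the letters only. Of the 36 genes, 27 had an entry in the table.

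Nes encodes nestin, an intermediate filament protein of neural, Schwann and muscle progenitors, and had the second highest mean level per length of the group over the 6 lines. Nes (chr3:87971078-87980451) had 246, 262 and 913 CPM in Nf1/p53 dKO and 23.9, 54.2 and 10.7 CPM in Nf1/Cdkn2a dKO. All Nf1/p53 dKO lines were above all Nf1/Cdkn2a dKO lines, and line 3 was highest. The log2 fold change was −4.00 (standard error 0.82, edgeR adjusted p = 0.0614), and −3.10 without Nf1/p53 dKO line 3. The adjusted p was 0.0424 with no filter. In the muscle lineage list, 8 of 8 tested genes had a log2 fold change below 0 (7875 of 15207 over all genes). The list was also highest in Nf1/p53 dKO line 3 (422 CPM, against 93.0 and 89.3 CPM in lines 1 and 2). Its part in the Nes difference was not tested.

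L1cam, which encodes an adhesion molecule of axons and nonmyelinating Schwann cells (chrX:73853778-73896105), had 2.59, 4.14 and 3.18 CPM in Nf1/p53 dKO and 0.818, 1.11 and 0.438 CPM in Nf1/Cdkn2a dKO. Its lines did not overlap (log2 fold change −2.06, standard error 0.45, edgeR adjusted p = 0.0705). L1cam shares 100 exon bases with Arhgap4, which was at most 0.678 CPM in any line.

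Sox2 and Gap43 split the Nf1/p53 dKO lines. SOX2 keeps Schwann cells immature, and Sox2 had the highest mean level per length of the group over the 6 lines. It had 147, 42.1 and 12.8 CPM in Nf1/p53 dKO lines 1 to 3 and 176, 135 and 160 CPM in Nf1/Cdkn2a dKO, so that Nf1/p53 dKO line 1 lay within the range of the other genotype. The log2 fold change was 1.22 (standard error 0.78, edgeR adjusted p = 0.4). Gap43, a growth-cone protein gene of axons and Schwann precursors, had 53.3, 4.72 and 4.92 CPM in Nf1/p53 dKO and 4.65, 39.0 and 59.6 CPM in Nf1/Cdkn2a dKO. In each genotype some lines were near 5 CPM and others many times higher, and the log2 fold change was 0.71 (standard error 1.20, edgeR adjusted p = 0.758).

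Ngfr, which marks immature and repair Schwann cells as well as crest cells (chr11:95568818-95587735), was read almost entirely in Nf1/p53 dKO line 2. Its 3 cultures had 62.4, 62.1 and 68.8 CPM. Nf1/p53 dKO lines 1 and 3 had 1.06 and 0.526 CPM, and the Nf1/Cdkn2a dKO lines 0.0321, 1.14 and 0.375 CPM, so line 2 was 56.4-fold above the next line. The log2 fold change between genotypes was −5.40 (standard error 2.15, edgeR adjusted p = 0.205).

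Egr2, the driver of myelination, was also highest in Nf1/p53 dKO line 2, at 19.4 CPM, with 2.60 and 7.07 CPM in lines 1 and 3 and 1.27 to 4.16 CPM in Nf1/Cdkn2a dKO. S100b, the calcium-binding protein gene by which Schwann cells are stained, had 1.80 CPM in that line and at most 0.412 CPM in any other. Cadm4, an adhesion gene of the internode, lay between 1.84 and 7.36 CPM, and Gldn, which encodes the gliomedin of nodal microvilli, between 0.166 and 4.79 CPM with lines of both genotypes at either end. Pou3f1 (OCT6, which times the onset of myelination), Pou3f2, the glial filament gene Gfap and the lipid-binding protein gene Fabp7 were below 1 CPM in every line.

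Of 23 further Schwann genes with enough counts, 1 rose (background 0.638%) and 1 fell (background 1.16%) in Nf1/Cdkn2a dKO. Adgrg6, listed in the table under its older symbol Gpr126, encodes the adhesion G protein-coupled receptor that Schwann cells need to start myelination. It had 12.9, 9.67 and 12.6 CPM in Nf1/p53 dKO and 30.6, 34.1 and 31.8 CPM in Nf1/Cdkn2a dKO (log2 fold change 1.45, standard error 0.18, edgeR adjusted p = 0.0287). Ncam1, the neural cell adhesion molecule of immature and nonmyelinating Schwann cells and also of myoblasts, had 65.9, 90.9 and 65.0 CPM against 15.8, 13.5 and 13.9 CPM (−2.36, standard error 0.19, edgeR adjusted p = 0.017). In both genes the lines did not overlap. Itga4, the integrin alpha4 gene, had the highest log2 fold change of the list (2.06, edgeR adjusted p = 0.128), and Cdh19, given above, the lowest fitted one. Of 13 tested genes of the Schwann response to nerve injury, 1 fell (background 1.16%) and 0 rose (background 0.638%). It was Gdnf, the glial neurotrophic factor gene, with 66.5, 28.9 and 43.9 CPM in Nf1/p53 dKO and 9.43, 7.54 and 13.8 CPM in Nf1/Cdkn2a dKO (−2.18, standard error 0.37, edgeR adjusted p = 0.0479). Bdnf, which encodes another neurotrophin, had the highest value of that list (1.56, edgeR adjusted p = 0.149).

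**Figure D3:**
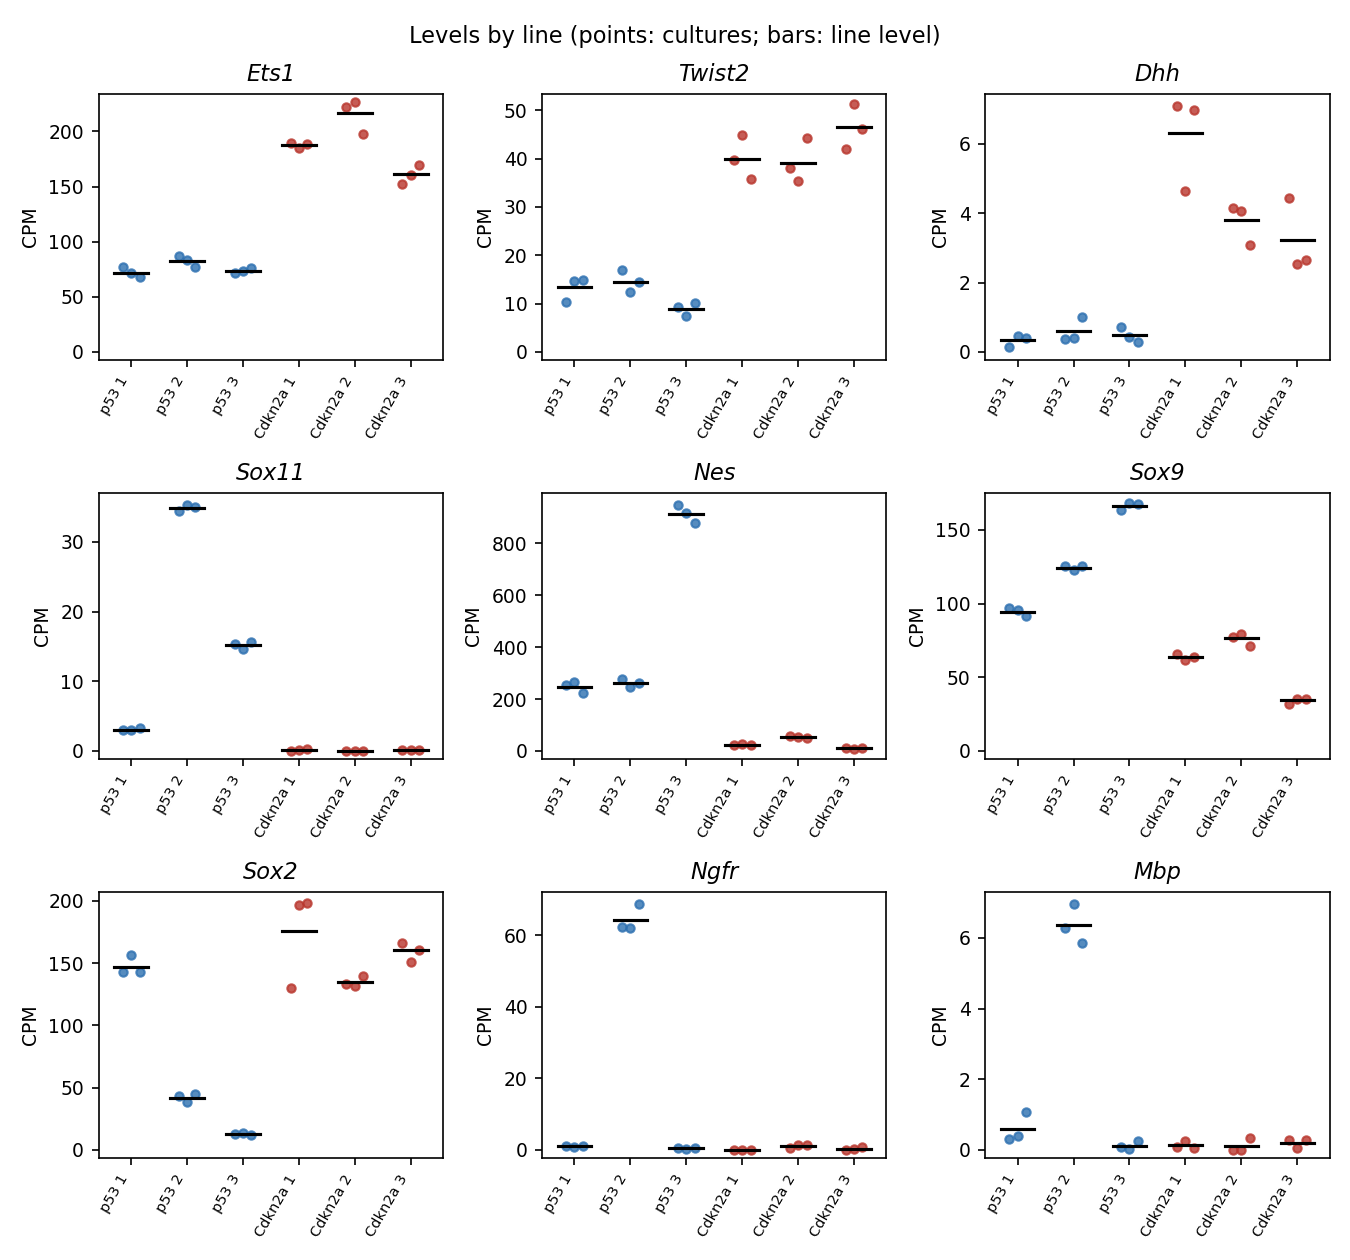
CPM of 9 genes in each line, with points for the 3 cultures of a line, bars for the line's level, blue for Nf1/p53 dKO and red for Nf1/Cdkn2a dKO. Ets1, Twist2 and Dhh are higher in all red lines, Sox11, Nes and Sox9 in all blue lines, Sox2 splits the blue lines, and Ngfr and Mbp are high in Nf1/p53 dKO line 2.

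None of the 7 myelin genes passed the genotype test (edgeR, background 1.8%), and 2 of the 4 tested had an unadjusted p under 0.05 (background 22.4%). The median log2 fold change of the 4 was −0.83. The genes of compact myelin were near 0 outside Nf1/p53 dKO line 2. Mbp, the myelin basic protein gene, had 0.593, 6.37 and 0.124 CPM in Nf1/p53 dKO and 0.128, 0.101 and 0.203 CPM in Nf1/Cdkn2a dKO. The 3 cultures of line 2 gave 6.28, 6.96 and 5.86 CPM, and the log2 fold change was −4.02 (standard error 1.42, edgeR adjusted p = 0.168). Pmp2, the fatty acid-binding protein gene of peripheral myelin, followed the same line, with 2.73 CPM in Nf1/p53 dKO line 2 and at most 0.167 CPM in the others. Mag, the myelin-associated glycoprotein gene, had no count in any of the 18 libraries, and Mal, a lipid raft protein gene, had 14 in all.

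The 3 myelin genes with wider expression were read in every line. Pmp22, which encodes a compact myelin protein also made by fibroblasts and epithelia, had the highest level per length of the group. It had 19.1, 48.8 and 71.3 CPM in Nf1/p53 dKO and 17.5, 13.2 and 41.6 CPM in Nf1/Cdkn2a dKO, with overlapping lines (log2 fold change −0.94, standard error 0.59, edgeR adjusted p = 0.393). Prx, the gene of the scaffold protein periaxin, had 14.1, 12.3 and 19.0 CPM against 9.28, 7.55 and 10.9 CPM. Its lines did not overlap, but by a small margin (−0.72, standard error 0.26, edgeR adjusted p = 0.176). Cnp, the phosphodiesterase gene of uncompacted myelin, had 29.6, 15.4 and 14.2 CPM against 20.5, 23.2 and 35.3 CPM (0.42, standard error 0.36, edgeR adjusted p = 0.528).

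All 7 mesenchymal transition factors were above 1 CPM in all 6 lines, and Twist2 rose in the Nf1/Cdkn2a dKO, by 3.40-fold. The median log2 fold change was 0.11, with 5 above 0 and 2 below. Twist2 encodes a basic helix-loop-helix repressor of mesenchymal differentiation, also known as Dermo1. Twist2 (chr1:91801461-91848028) had 13.4, 14.5 and 8.88 CPM in Nf1/p53 dKO and 39.9, 39.0 and 46.5 CPM in Nf1/Cdkn2a dKO. The lowest Nf1/Cdkn2a dKO culture, at 35.3 CPM, was above the highest Nf1/p53 dKO culture, at 16.9 CPM. The log2 fold change was 1.77 (standard error 0.23, edgeR adjusted p = 0.0318). It passed without Nf1/p53 dKO line 3 (0.038) and not without Nf1/p53 dKO line 1 (0.0559), line 2 (0.0659) or Nf1/Cdkn2a dKO line 1 (0.123), line 2 (0.109) or line 3 (0.0973), at a log2 fold change of 1.58 to 1.92. Twist2 shares 1477 exon bases with the antisense gene Gm29100, and the strand setting of the counting is not given in the sources used here. Gm29100 had 1.02 to 1.44 CPM in Nf1/p53 dKO and 2.02 to 2.85 CPM in Nf1/Cdkn2a dKO.

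Twist1 and Snai2 lay on the same side without passing the test. Twist1, required for mesenchymal identity of the cranial crest, had 89.0, 76.0 and 50.6 CPM in Nf1/p53 dKO and 135, 137 and 93.2 CPM in Nf1/Cdkn2a dKO (log2 fold change 0.76, standard error 0.26, edgeR adjusted p = 0.155). Snai2, the Slug repressor gene of the crest, had 24.4, 34.9 and 17.4 CPM against 39.5, 35.3 and 48.9 CPM (0.69, standard error 0.28, edgeR adjusted p = 0.215). The lines did not overlap in either gene, in Snai2 only just.

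The other transition factors overlapped between the genotypes. Zeb2, which encodes an E-box repressor that Schwann cells need for myelination, had 79.7, 114 and 87.3 CPM in Nf1/p53 dKO and 84.3, 35.4 and 78.1 CPM in Nf1/Cdkn2a dKO (log2 fold change −0.51, standard error 0.34, edgeR adjusted p = 0.421). Snai1, the Snail gene, lay between 38.8 and 90.3 CPM, and Zeb1, the gene of the related ZEB1 repressor, between 71.3 and 104 CPM. S100a4, the gene of a calcium-binding protein of motile mesenchymal cells, had 1230, 1189 and 1705 CPM in Nf1/p53 dKO and 1432, 956 and 1753 CPM in Nf1/Cdkn2a dKO. Its log2 fold change was 0.01 (standard error 0.27, edgeR adjusted p = 0.992), which turned below 0 with upper-quartile scaling (−0.04) and with raw library totals (−0.13). That of Snai1 (0.11) also turned with raw totals (−0.02), which moved the median of all genes from −0.02 to −0.16.

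Of 18 tested epithelial genes and transition partners, 0 passed the genotype test (edgeR, background 1.8%), with 5 at an unadjusted p under 0.05 (background 22.4%). The highest was Prrx1, a homeobox gene of limb and crest mesenchyme, with 183 to 343 CPM in Nf1/p53 dKO and 488 to 1117 CPM in Nf1/Cdkn2a dKO (log2 fold change 1.40, edgeR adjusted p = 0.106). The lowest was Cdh3, the P-cadherin gene, with 11.6, 3.82 and 0.263 CPM against 0, 0.0721 and 0.328 CPM (−5.27, edgeR adjusted p = 0.143).

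Marker lists of other cell types moved with the genotype in part. Over all genes tested with edgeR, 0.638% were called higher and 1.16% lower in Nf1/Cdkn2a dKO, and 22.4% had an unadjusted p under 0.05. Among muscle lineage markers, the muscle-determining factor gene Myf5 (24.2 to 28.0 CPM in Nf1/p53 dKO, 1 count in all of Nf1/Cdkn2a dKO, edgeR adjusted p = 0.00672) and the M-cadherin gene Cdh15 (27.9 to 97.6 and 0.125 to 0.332 CPM, adjusted p = 0.0191) were lower in Nf1/Cdkn2a dKO. Myod1, another factor of that kind, had 203 CPM in Nf1/p53 dKO line 3, 1.75 and 0.269 CPM in lines 1 and 2 and no count in Nf1/Cdkn2a dKO, and the troponin gene Tnnt1 had the highest log2 fold change of the list (−1.51, edgeR adjusted p = 0.519). Of 15 fibroblast markers, the decorin gene Dcn fell (104 to 934 CPM in Nf1/p53 dKO and 3.40 to 6.59 CPM in Nf1/Cdkn2a dKO, edgeR adjusted p = 0.047), Lum, the lumican gene, had the lowest log2 fold change (−10.00, adjusted p = 0.0511) and Dpp4 the highest (5.17, adjusted p = 0.118). Of the endothelial markers, Tek fell from levels of at most 1.08 CPM (edgeR adjusted p = 0.0465), with Cdh5 highest. No perineurial, melanocyte, neuron or leukocyte marker passed the test (edgeR; 2, 0, 1 and 0 at an unadjusted p under 0.05), with Krt19 and Crabp2, Pmel and Mitf, Nefl and Syt1, and Ptprc and Csf1r at the highest and lowest log2 fold changes, and the leukocyte markers summed to 3.73 to 8.13 CPM. Per the study's methods, the lines were passaged many times before use, with the aim of keeping tumor cells alone. The part of these cell types in the genotype differences above was not tested, and in bulk samples fewer cells of a type and less RNA per cell cannot be told apart.

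Lines of one genotype, each from its own tumor, differed in most of the genes. On the 18 cultures with a term for each line, edgeR called 27 of 29 tested genes (here with Pmp2 and without Pou3f1) among the Nf1/p53 dKO lines (background 73.2%) and 26 of 29 among the Nf1/Cdkn2a dKO lines (background 56.8%). In Nf1/p53 dKO the genes not called were Dhh (adjusted p = 0.344) and L1cam (0.116). In Nf1/Cdkn2a dKO they were Twist2 (0.185), Mbp (0.681) and Pmp2 (0.455). This test compares lines over their cultures, which share a tumor, and says nothing of the genotype.

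The 25 genes with a mean of at least 1 CPM spanned a median of 2.32-fold between the highest and the lowest Nf1/p53 dKO line, on the CPM + 0.1 scale, where all tested genes at that level spanned 1.51-fold. In Nf1/Cdkn2a dKO the medians were 1.92-fold and 1.32-fold. More than 4-fold apart were 9 of the 25 (36%; 9.04% of all genes) in Nf1/p53 dKO and 5 (20%; 5.86% of all genes) in Nf1/Cdkn2a dKO. In Nf1/p53 dKO these were Ngfr, Mbp, Ednrb, Gldn, Tfap2a, Sox2, Gap43, Sox11 and Egr2, and in Nf1/Cdkn2a dKO Ednrb, Gap43, Ngfr, Gldn and Nes. The 7 transition factors spanned at most 2.38-fold within a genotype (Zeb2 in Nf1/Cdkn2a dKO).

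**Figure D4:**
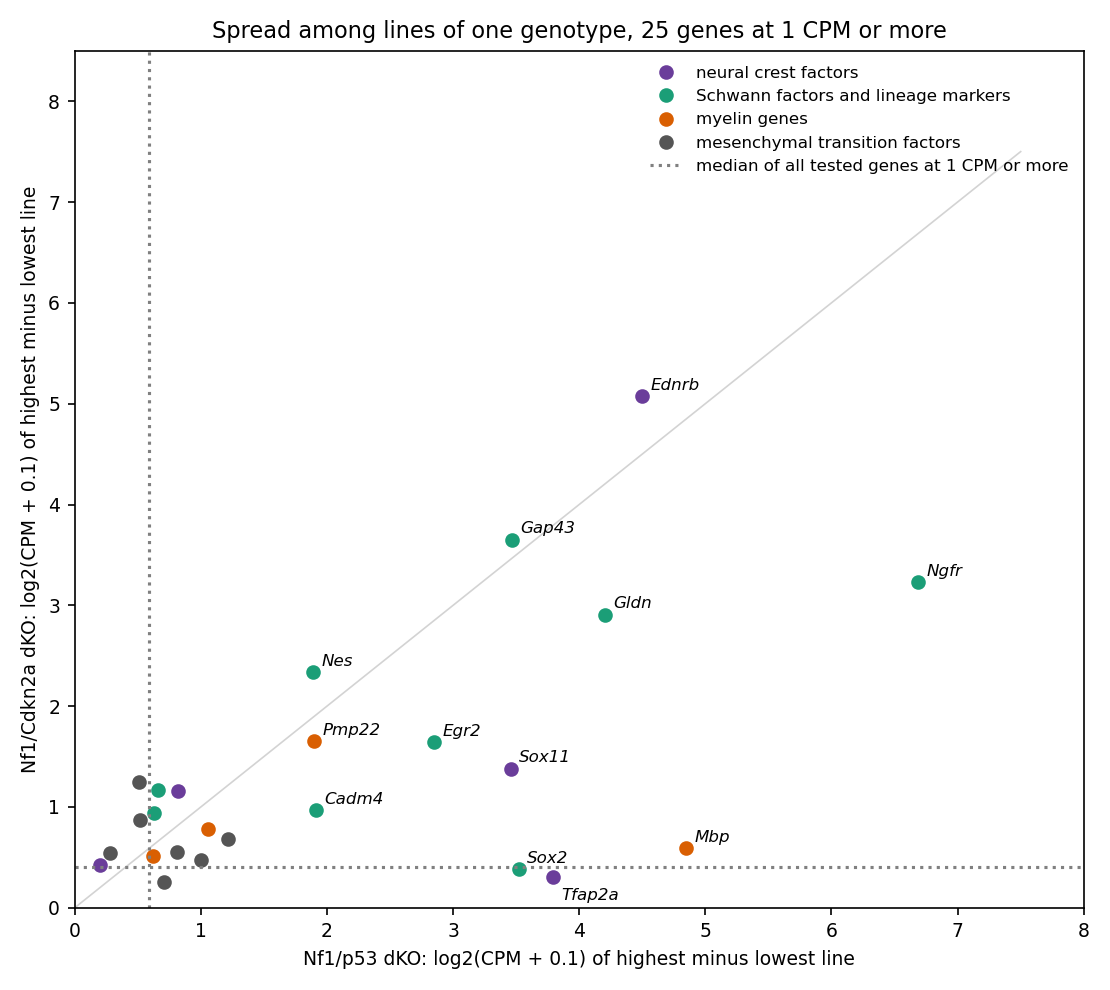
Difference between the highest and lowest line on the log2(CPM + 0.1) scale, in Nf1/p53 dKO (horizontal) and Nf1/Cdkn2a dKO (vertical), for the 25 genes with a mean of at least 1 CPM, with dotted lines at the median of all such genes. Ngfr and Mbp lie far to the right, Ednrb and Gap43 are spread in both genotypes, and the grey points of the transition factors lie near the origin.

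The line with the highest level differed between the groups of genes. Among the 25 genes, Nf1/Cdkn2a dKO line 3 was highest in 9, Nf1/p53 dKO line 2 in 7 and Nf1/p53 dKO line 3 in 4, and Nf1/p53 dKO line 2 was lowest in none. Among the 7 transition factors, Nf1/Cdkn2a dKO line 3 was highest in 4 and Nf1/p53 dKO line 3 lowest in 4. At least 1 CPM was reached by 18 of the 36 genes in every line and by no line in 8. The 18 held all 7 transition factors, 3 of 8 crest factors, 5 of 14 Schwann genes and 3 of 7 myelin genes.

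Levels between genes were compared as CPM per kilobase of exon, averaged over the 6 lines. S100a4 was highest at 2359, followed by Twist1 (59.4), Sox2 (54.5), Nes (39.2), Snai1 (38.7) and Sox9 (22.5). Twist1, Sox2, Nes and Snai1 overlapped over the lines and have no order beyond their spread. Gap43 (18.2), Snai2 (16.5) and Ets1 (15.6) came next. The place of Nes held in neither genotype, since it averaged 73.8 in Nf1/p53 dKO, behind S100a4 alone, and 4.61 in Nf1/Cdkn2a dKO, rank 14 of the 36 genes. Sox2 averaged 32.8 and 76.2. The genes that define a Schwann cell were at the other end, with S100b at 0.303, Mbp at 0.148 and Sox10 at 0.0139.

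**Figure D5:**
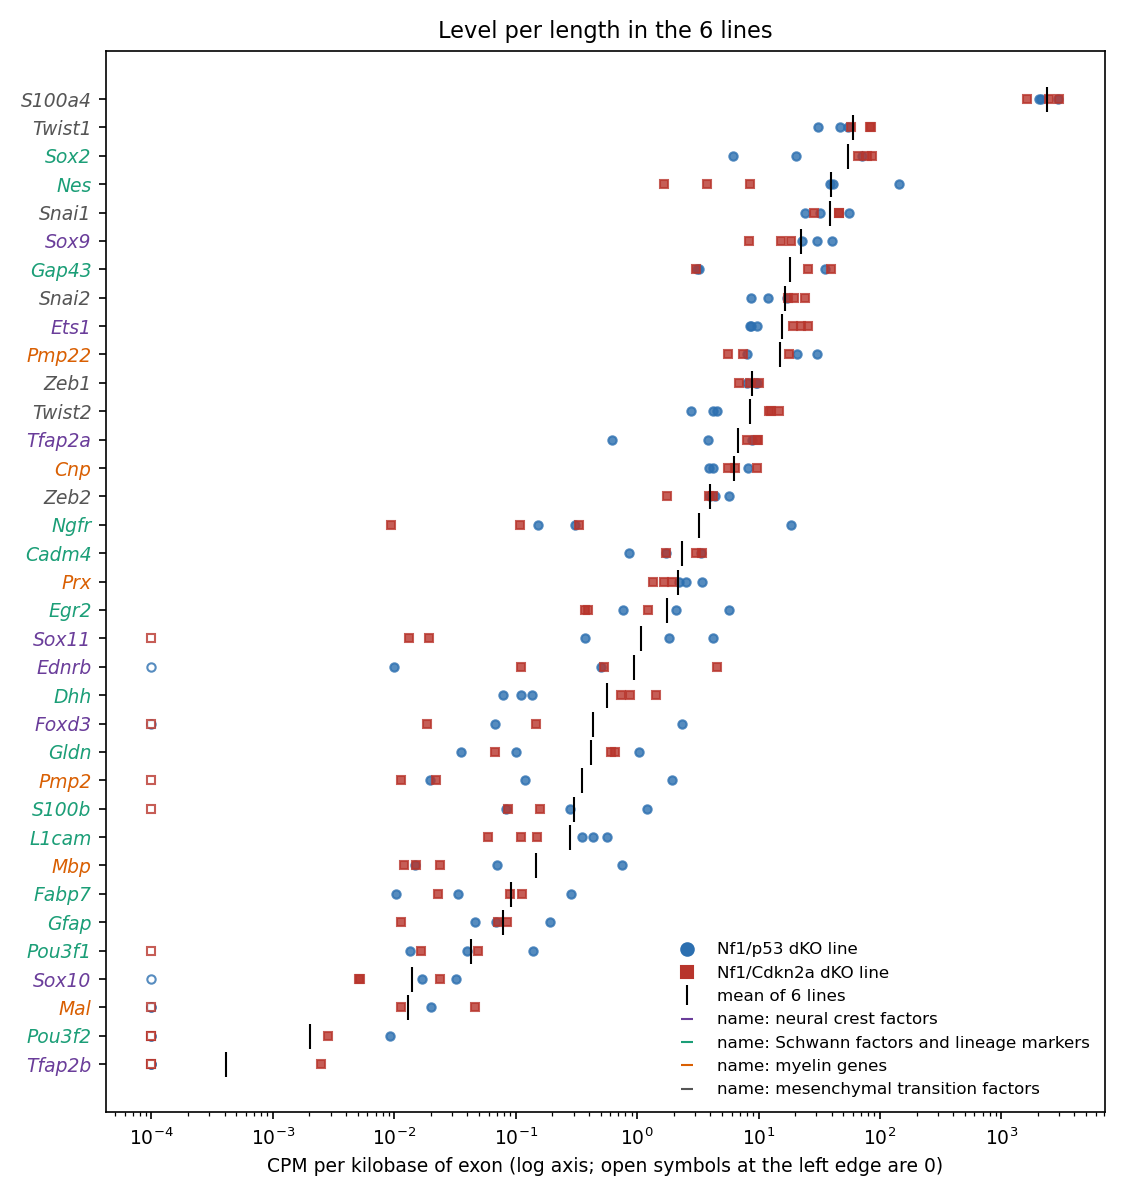
CPM per kilobase of exon on a log axis for the 35 genes with a count, sorted by their mean, with circles for Nf1/p53 dKO lines, squares for Nf1/Cdkn2a dKO lines and a bar for the mean of the 6 lines. S100a4, Twist1 and Sox2 are at the top, Sox10, Mal, Pou3f2 and Tfap2b at the bottom, and Mag, with no count, is left out.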

How the data were processed

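RNA-seq was run on 18 libraries from 6 cell lines. Per the submitters' processing notes, CASAVA, STAR 2.5 and DESeq2 1.14.1 were used with GRCm38; the counting tool and its strand setting are not given in the sources used here. The authors deposited raw counts, unnormalized whole numbers for 35275 genes in each library. All 18 columns were used. Cultures were summed per line, and genes kept by filterByExpr (minimum count 10, minimum total 15) were scaled by TMM (factors 0.941 to 1.06) and tested two-sided in R 4.3.3 with the quasi-likelihood test of edgeR 4.0.16, with p-values adjusted by Benjamini-Hochberg over all tested genes. Alternatives used limma 3.58.1 and DESeq2 1.42.0, and figures matplotlib 3.10.9. With 3 lines per genotype, an exact permutation p is at least 0.1. Lines within a genotype were compared on the 18 cultures. Exon lengths and overlaps came from GENCODE M21. Every list gene of 189 was found in the table. The code was tested on simulated counts. Limits at low counts cover counting error only.

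The genes and lists were chosen with earlier results of these data known. Genes are given in full if called, if the lines of the genotypes do not overlap at a mean of at least 1 CPM, if among the 3 with the largest SD of log2 CPM in their group, or if highest per length; of other lists, called genes and extremes are named, with Erbb3. Some results are not reported here. Alternatives were other units of replication, tools, scalings and filters, blocks and lines or cultures left out; raw library totals were added after seeing the data.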

Additional observations from a re-analysis of the deposited data

Results flagged for a closer look

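In 9 cases, 1 culture stood far from the others of its genotype by Dixon's test, over 69 groups of cultures tested. The test's rate of about 1 in 20 by chance assumes normal values, so it does not apply to these counts near 0. Where a single culture of a genotype had any count, as for Tfap2b, the gap filled the whole range whatever the count. All 9 cases rest on 14 counts or fewer. In Nf1/Cdkn2a dKO these were Sox10 at 0.155 CPM (4 counts) in line 2 culture 1, Sox11 at 0.344 CPM (8 counts) in line 1 culture 3, Tfap2b at 0.0452 CPM (1 count) in line 3 culture 1, Pou3f2 at 0.0533 CPM (1 count) in line 1 culture 2, Pmp2 at 0.0973 CPM (2 counts) in line 3 culture 2 and Mal at 0.426 CPM (8 counts) in line 1 culture 2. In Nf1/p53 dKO they were Pou3f2 at 0.161 CPM (4 counts) in line 1 culture 3, Fabp7 at 0.586 CPM (14 counts) in line 2 culture 1 and Mal at 0.16 CPM (4 counts) in line 3 culture 2. Of these genes, only Sox11 had enough counts for the genotype test.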

How the results depend on the processing

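The number of the 36 genes called between genotypes depended on the unit of replication and the tool. With the 18 cultures as separate samples, edgeR called 16 and DESeq2 20. On the 18 cultures with a random line effect, limma-voom called 11. DESeq2 on the 6 lines called 10 and edgeR with no filter 5. Leaving out 1 line or culture number gave 0 to 4, and all genes called ran from 0 (edgeR; 2668 at an unadjusted p under 0.05), without Nf1/Cdkn2a dKO line 1, to 331, without culture 2 of each line. Deviations from the genotype mean correlated at −0.13 to −0.08 over 3 pairs of same-numbered lines and at 0.0237 to 0.0701 over 6 pairs of other-numbered lines. The deviations of the 3 lines of a genotype sum to 0, so these values depend on one another. Same-numbered cultures had a median correlation of 0.00129 (−0.0569 to 0.085). Whether the numbers carry an order of processing cannot be decided from these values. With the line number as a replicate block 0 of the 36 genes and 0 of all genes were called by edgeR (10 and 2740 at an unadjusted p under 0.05), and with the culture number as a block on the 18 cultures 14 were. The median log2 fold change of the crest factors was 1.30 by limma-voom and −0.18 to 1.05 with 1 line or culture number left out. That of the Schwann genes was 0.13 on 18 cultures by edgeR, 0.72 by limma-voom, 0.31 with at least 10 counts in every line, 0.15 with the culture block and −1.61 to −0.26 with 1 left out (−0.26 without Nf1/p53 dKO line 2); that of the myelin genes was −1.22 to −0.50 with 1 left out. These medians cover fewer genes where low counts were filtered. S100a4 turned below 0 by edgeR (−0.012), DESeq2 (−0.010) and limma-voom (−0.040) on 18 cultures, with upper-quartile scaling (−0.044), raw totals (−0.13), at least 10 counts (−0.0093), the line block (−0.018) and the culture block (−0.013), and ran from −0.20 to 0.22 with 1 left out. Snai1 was −0.015 with raw totals and −0.12 to 0.54 with 1 left out; Foxd3 −6.27 to 0.72, Gldn −0.34 to 2.70 and Zeb1 −0.23 to 0.043. Sox11, Nes, L1cam and Sox9 passed with DESeq2 on the 6 lines and in each fit to the 18 cultures. The direction of Ets1, Dhh, Twist2, Sox11, Nes, L1cam and Sox9 held in every alternative that could be fitted. Counts of a few reads limit Sox10, Mag, Mal, Tfap2b and Pou3f2.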
